A study of Mus musculus with 6 samples.

Results

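The 37 genes described here belong to the antioxidant system of the cell. They include the transcription factor Nrf2 with its inhibitor and the enzymes that make and recycle glutathione and thioredoxin. The others are genes of peroxidases, dismutases, catalase and glutathione transferases, and the ferritin and transferrin receptor genes that control free iron. The 37 genes form a listed set of Nrf2 pathway, peroxidase, glutathione and ferritin genes, not picked by a threshold on these values. All 37 were matched by symbol to a gene in the deposited table of 55335 genes. Polyadenylated RNA was measured in sciatic nerve of mice at postnatal day 14. The icKO nerves (n = 3) carried RhoAfl/fl together with ChATCreERT2+, a tamoxifen-inducible Cre recombinase driven from the choline acetyltransferase gene, which is active in cholinergic neurons such as motoneurons. The control nerves (n = 3) carried RhoAfl/fl without Cre, so the floxed allele is shared by both groups. The labels give neither the time of induction nor whether control mice received the inducing drug. They also do not state that each library is a different animal, so the p-values reflect the variation of these libraries alone, which may be technical. The somata of the targeted neurons lie in the spinal cord, and a nerve lysate holds RNA of Schwann cells, fibroblasts, perineurial, endothelial, blood and fat cells.

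Nrf2 is held by Keap1, which hands it to an E3 ubiquitin ligase for degradation. Oxidants and electrophiles modify Keap1, and Nrf2 then enters the nucleus and binds antioxidant response elements as a partner of small Maf proteins, in competition with the repressor Bach1. Its known targets supply glutathione and reduced thioredoxin, which peroxiredoxins and glutathione peroxidases consume to remove peroxides. Iron that is not locked in ferritin feeds the chemistry that turns peroxide into radicals, and the lipid-rich myelin membrane is a substrate of such oxidation.

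Values are FPKM, fragments scaled to transcript length and library depth, and differences are on the log2(FPKM + 1) scale as icKO minus control, which understates the change of low genes. Rhoa itself was at 36.4, 33.6 and 33.2 FPKM in icKO libraries 1 to 3, against 36.5, 39.0 and 38.0 FPKM in control libraries 1 to 3 (limma, Benjamini-Hochberg adjusted p = 0.195), and Chat was listed at 0 in all libraries but control 1 (0.012 FPKM). The depth was estimated at 17200000 to 20600000 fragments per library. Xist, which females transcribe, was at 46.1 FPKM in control 2 and no higher than 0.028 FPKM elsewhere, and the Y-linked Ddx3y was at 0 in control 2 alone. Summed over 10 skeletal muscle markers, icKO 3 (1332 FPKM) and control 1 (1094 FPKM) stood above the other 4 libraries (8.73 to 293 FPKM). All 7 adipocyte markers were lower in icKO nerves, with a sum of 102 to 170.0 FPKM in icKO and 466 to 571 FPKM in control libraries, and 5 of 7 fibroblast markers were lower and 1 higher, with a sum of 756 to 776 FPKM in icKO and 939 to 1709 FPKM in control libraries. Summed over 7 neuron markers, the level was 25.6 to 36.2 FPKM in icKO and 9.44 to 9.73 FPKM in control libraries. Of 4 tested markers 3 were higher, the neurofilament genes Nefl, Nefm and Nefh. Tubb3 did not pass, with a mean of 2.93 FPKM in icKO and 2.88 FPKM in control nerves. Chat, Isl1 and Snap25 were under the filter, and Snap25 was lower in icKO nerves (0.29 against 0.43 FPKM). Summed over 6 endothelial markers, the level was 68.2 to 79.0 FPKM in icKO and 85.7 to 87.9 FPKM in control libraries. Of these markers 2 were lower, 1 was higher and 3 did not pass. The sum of 5 perineurial markers overlapped, at 184 to 205 FPKM in icKO and 195 to 201 FPKM in control libraries. None of the adipocyte, fibroblast or endothelial markers was at 0 in all libraries. In bulk tissue, fewer cells of a type and less RNA per cell cannot be told apart.

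Antioxidant transcripts were more often lower than higher in icKO nerves. Peroxiredoxins, glutathione peroxidases and glutathione transferases, with 6, 5 and 8 of the 37 members, held 12 of the 17 falls. Of the 37 genes, all of which passed the filter of a mean of at least 1 FPKM, 17 fell, 2 rose and 18 did not pass (limma, Benjamini-Hochberg adjusted p under 0.05). Over all 12860 genes tested, 42.9% passed, 22.1% lower and 20.8% higher. Among the members 51.4% passed, 45.9% lower and 5.41% higher, so that the share of calls was near the background, with more falls and fewer rises. The median difference was -0.21 for the members and -0.01 for all genes tested. The libraries of both groups did not overlap in 20 members, 16 with icKO below and 4 with icKO above, a share of 54.1% against 57.2% of all genes tested. Without control 3, 11 members fell, while 3750 of all 12860 genes tested passed, against 5516 with every library. Of the 19 members that passed, 12 also did so whichever of the 6 libraries was omitted: Prdx1, Prdx2, Prdx3, Prdx4, Gpx8, Sod3, Cat, Gstm1, Gstm5, Gstp1, Mgst1 and Mgst3. Of these 12, Gstm1 rose and the other 11 fell. Lower adipocyte markers accompanied the falls. With the mean log2 level of the 7 adipocyte markers as a covariate, 1 of 12860 genes passed and none of the members, but 95.2% of the variance of that level lay between the groups, so fat markers and genotype cannot be told apart.

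**Figure D1:**
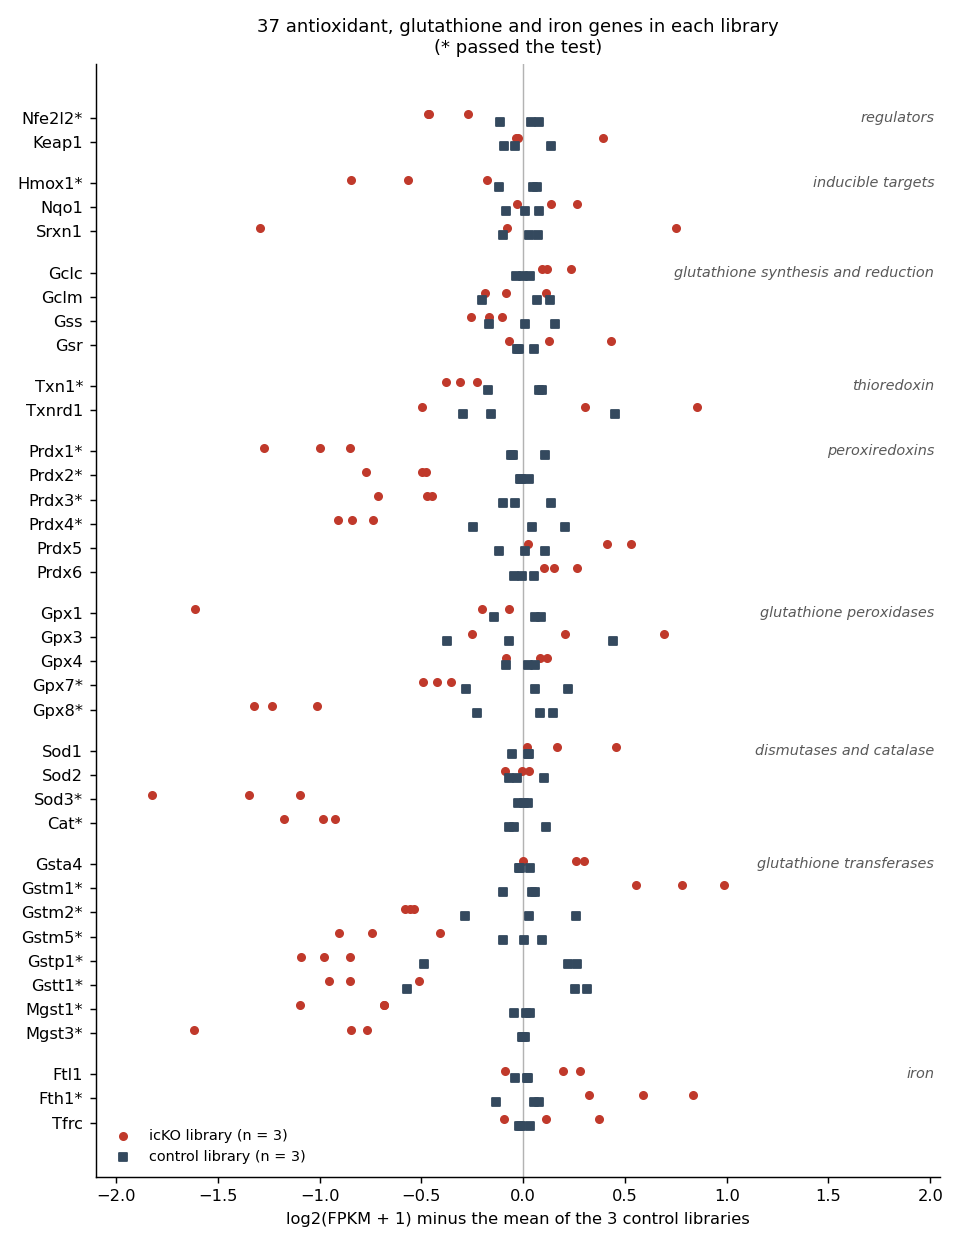
Log2(FPKM + 1) of each of the 37 genes in each library (horizontal axis), relative to the mean of the 3 control libraries, with genes grouped by role from top to bottom. Circles are icKO libraries, squares are control libraries, and asterisks mark the 19 genes that passed the test. Prdx1 to Prdx4, catalase, Sod3 and most glutathione transferases lie left of control, and Gstm1 and Fth1 lie right of it.

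Among the regulators, Nrf2 fell and Keap1 did not pass. Nfe2l2 (ENSMUSG00000015839), which encodes Nrf2, was at 22.2, 22.1 and 25.5 FPKM in icKO libraries, against 28.5, 32.8 and 31.8 FPKM in control libraries. Every icKO value was under every control value, and the log2 difference was -0.40 (SE 0.09, limma, Benjamini-Hochberg adjusted p = 0.0152), which did not pass without control 2 or control 3 (limma, Benjamini-Hochberg adjusted p = 0.0605 and 0.0592). Keap1, its inhibitor, was at 8.24, 8.18 and 11.4 FPKM in icKO and 8.15, 9.35 and 7.81 FPKM in control libraries, with overlapping groups and a 95% interval of the difference of -0.22 to 0.44.

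Several partners and competitors of Nrf2 rose. In a list of 16 partners and regulators, 13 were tested, with a median difference of 0.14. Of the 13, 5 rose (38.5%, against 20.8% of all genes tested), 1 fell (7.69%, against 22.1%) and 7 did not pass. Mafk, a small Maf protein that pairs with Nrf2 and with Bach proteins, was at 15.6, 16.2 and 16.9 FPKM in icKO, against 7.65, 7.67 and 6.17 FPKM in control libraries (difference 1.08, SE 0.10, limma, Benjamini-Hochberg adjusted p = 0.000752). Bach1, the repressor that occupies the same elements, averaged 14.1 ± 2.29 FPKM in icKO and 7.37 ± 0.20 FPKM in control nerves (SD, n = 3 each). Sqstm1, the autophagy receptor p62 that can sequester Keap1, averaged 104 ± 8.09 FPKM in icKO and 68.5 ± 2.89 FPKM in control nerves. Maff and Rxra, a nuclear receptor, were the other rises, by 0.82 and 0.86 on the log2 scale. Park7, also known as DJ-1, was the only fall, with 13.7 ± 2.77 FPKM in icKO and 19.8 ± 1.55 FPKM in control nerves, and it passed in 1 of the 6 fits without a single library, that without icKO 3 (adjusted p of 0.0576 to 0.0781 in the other 5, limma, Benjamini-Hochberg).

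The genes best known as Nrf2 targets did not move as a block. Hmox1, haem oxygenase, which splits haem into biliverdin, carbon monoxide and iron, was at 17.4, 14.1 and 22.99 FPKM in icKO, against 24.1, 27.4 and 27.1 FPKM in control libraries. The call (-0.53, SE 0.17, limma, Benjamini-Hochberg adjusted p = 0.0427) held in only 1 of the 6 fits without a single library, that without icKO 3, and had an adjusted p of 0.0649 to 0.116 in the others. Macrophages are rich in haem oxygenase, and the summed level of 8 macrophage markers was 25.4 to 27.0 FPKM in icKO and 18.6 to 44.9 FPKM in control libraries, with 0 of 6 tested markers called and none at 0 in all libraries. The part of these cells in the result was not tested. Nqo1, a quinone reductase, was at 6.94 ± 0.82 FPKM in icKO and 6.27 ± 0.41 FPKM in control nerves, with a 95% interval of the difference of -0.12 to 0.37.

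Srxn1, the sulfiredoxin that repairs overoxidised peroxiredoxins, was at 9.52, 3.54 and 17.7 FPKM in icKO, against 10.3, 10.7 and 9.39 FPKM in control libraries. The icKO libraries lay on either side of control, with icKO 2 lowest and icKO 3 highest. Txnrd1, the cytosolic thioredoxin reductase, had the same order, at 8.05, 4.21 and 12.3 FPKM in icKO, against 4.99, 5.57 and 9.06 FPKM in control libraries. Gsr, which regenerates glutathione, was also lowest in icKO 2 and highest in icKO 3, at 7.01, 6.002 and 8.89 FPKM in icKO, against 6.18, 6.61 and 6.23 FPKM in control libraries. Among the icKO libraries alone, Hmox1 had the same order. None of Srxn1, Txnrd1 and Gsr passed, and the mean of Srxn1 was 1.01 times the control mean while its log2 difference was -0.21. The library icKO 3 was also the icKO library with the highest muscle marker sum, while that sum was 20.8 FPKM in icKO 2 and 8.73 FPKM in icKO 1. Control 1, with the highest muscle marker sum of the control libraries, was the lowest of them for Txnrd1, Gsr and Hmox1 but not for Srxn1. With the mean log2 level of the muscle markers as a covariate, Srxn1, Txnrd1 and Gsr did not pass either. That fit compares the groups, and the part of muscle in the spread among icKO libraries was not tested.

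**Figure D2:**
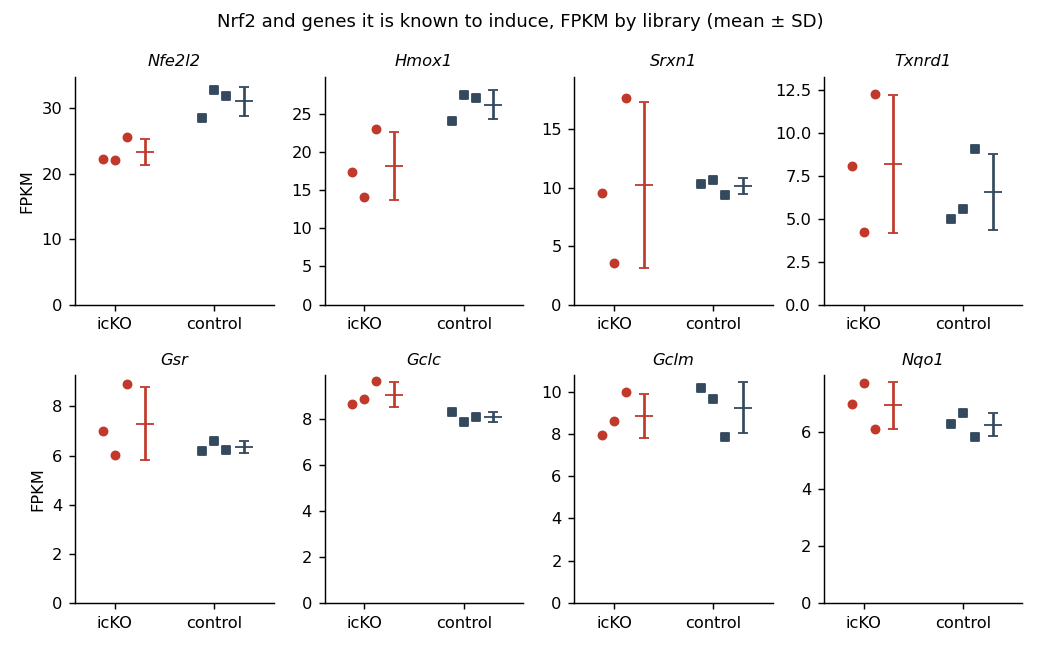
FPKM (vertical axis, from 0) of Nfe2l2 and 7 genes known as its targets in each library, with icKO at the left and control at the right of each panel and the mean ± SD (n = 3) beside the points. Among the icKO libraries, Srxn1, Txnrd1, Gsr and Hmox1 were lowest in icKO 2 and highest in icKO 3, and for Nfe2l2 and Hmox1 every icKO point lies below control.

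None of the genes of glutathione synthesis passed. Gclc and Gclm, the catalytic and modifier subunits of glutamate-cysteine ligase, averaged 9.05 ± 0.53 and 8.86 ± 1.04 FPKM in icKO, against 8.06 ± 0.22 and 9.24 ± 1.22 FPKM in control nerves (SD, n = 3 each). For Gclc the icKO libraries lay above control (95% interval of the difference -0.03 to 0.33). Gss, glutathione synthetase, was at 4.02 ± 0.26 FPKM in icKO and 4.69 ± 0.63 FPKM in control nerves. The cystine transporter gene Slc7a11, a known Nrf2 target, was under the filter at 0.015 to 0.066 FPKM in icKO and 0.018 to 0.047 FPKM in control libraries. Of 16 tested genes in a list of other Nrf2 targets, 2 rose, 4 fell and 10 did not pass, and their median difference was 0.02. The shares were 12.5% higher and 25% lower, against 20.8% and 22.1% of all genes tested. The aldose reductase gene Akr1b3 had the largest difference there, at 2.50, 1.94 and 2.37 FPKM in icKO, against 11.95, 15.3 and 14.7 FPKM in control libraries (-2.19, SE 0.12, limma, Benjamini-Hochberg adjusted p = 0.000299). Ptgr1 and Akr1b8 also fell, by 0.59 and 0.55 on the log2 scale, and the transporter gene Abcc4 and the oxidase gene Aox1 rose by 0.57 and 0.48. Akr1b8 did not pass without icKO 1, icKO 2 or control 2 (limma, Benjamini-Hochberg adjusted p = 0.0556, 0.0525 and 0.0531).

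The core of the antioxidant response element, TGAC and GC with any 3 bases between them, was searched on both strands in the 250 bases upstream of the annotated starts of the 31 members that have a RefSeq promoter (build GRCm38.p6), and 7 held a match, 22.6% of these members, against 11.5% of all 27025 genes in the same table. The matches stood before 4 genes that fell (Prdx1, Mgst1, Gstm5 and Nfe2l2) and 3 that did not pass (Gclm, Sod1 and Txnrd1), and the sites are shown side by side because genes with the same core upstream differed in whether they passed. For Txnrd1 the match lies before 1 of its several annotated starts. Each line gives the strand on which the motif reads, with the motif in capitals and 16 bases or fewer on each side. In Prdx1 the motif also contains TGACTCA, the core bound by AP-1 factors. A match of letters is a description and not a binding site.
Prdx1, chr4:116685450-116685490, minus strand: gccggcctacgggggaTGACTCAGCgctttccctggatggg
Mgst1, chr6:138140455-138140495, minus strand: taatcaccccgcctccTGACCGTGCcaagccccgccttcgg
Gstm5, chr3:107895796-107895836, plus strand: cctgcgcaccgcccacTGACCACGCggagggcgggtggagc
Nfe2l2, chr2:75704879-75704913, minus strand: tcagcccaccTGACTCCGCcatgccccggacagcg
Gclm, chr3:122245407-122245447, minus strand: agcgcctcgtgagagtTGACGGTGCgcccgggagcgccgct
Sod1, chr16:90220690-90220730, minus strand: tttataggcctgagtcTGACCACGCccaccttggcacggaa
Txnrd1, chr10:82859098-82859138, minus strand: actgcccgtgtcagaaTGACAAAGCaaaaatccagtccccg

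Thioredoxin and 4 of the peroxiredoxins fell. Txn1, cytosolic thioredoxin, was at 35.1, 36.95 and 39.2 FPKM in icKO, against 40.7, 49.1 and 48.7 FPKM in control libraries. The groups did not overlap, but the call (-0.30, SE 0.10, limma, Benjamini-Hochberg adjusted p = 0.0475) was lost without icKO 1, icKO 2, control 2 or control 3 (limma, Benjamini-Hochberg adjusted p = 0.125, 0.0927, 0.15 and 0.151). Of 6 peroxiredoxin genes, 4 fell (66.7%, against 22.1% of all genes tested) and none rose. In each of the 4 and in Prdx6 the groups did not overlap, a share of 83.3% against 57.2% of all genes tested.

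Prdx1, the abundant cytosolic peroxiredoxin, was at 47.4, 38.9 and 52.6 FPKM in icKO, against 92.4, 91.5 and 103 FPKM in control libraries, or 0.484 times the control mean (-1.04, SE 0.12, limma, Benjamini-Hochberg adjusted p = 0.00148). Prdx2, which neurons and red cells hold in quantity, was at 17.1, 13.9 and 17.3 FPKM in icKO, against 25.0, 24.3 and 24.2 FPKM in control libraries. Erythroid markers had a summed level of 3424 to 6000 FPKM in icKO and 2559 to 8341 FPKM in control libraries, with 0 of 6 tested markers called and none at 0 in all libraries, and their part in the result was not tested. Prdx3, the mitochondrial member, was at 19.1, 16.1 and 19.5 FPKM in icKO, against 25.1, 26.2 and 29.7 FPKM in control libraries. Prdx4, which works in the endoplasmic reticulum, was at 8.88, 9.58 and 8.39 FPKM in icKO, against 13.9, 17.2 and 19.4 FPKM in control libraries. The log2 differences of Prdx2, Prdx3 and Prdx4 were -0.58, -0.54 and -0.83 (limma, Benjamini-Hochberg adjusted p = 0.00478, 0.00812 and 0.00332).

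Prdx5 and Prdx6 did not follow. Prdx5, found in mitochondria, peroxisomes and cytosol, was at 38.4, 26.8 and 35.4 FPKM in icKO, against 26.5, 24.2 and 28.4 FPKM in control libraries. It passed as a rise only without icKO 2 (0.47, limma, Benjamini-Hochberg adjusted p = 0.0173). Prdx6, which uses glutathione in place of thioredoxin and also repairs phospholipids, was at 19.7, 20.4 and 22.2 FPKM in icKO, against 17.7, 18.2 and 19.0 FPKM in control libraries. Every icKO library of Prdx6 lay above every control library, with a 95% interval of the difference of -0.02 to 0.36.

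The 250 bases upstream of Prdx1 are shown because this gene combined the largest change among peroxiredoxins with a motif match, which is in capitals as it reads on the gene's strand (RefSeq, GRCm38.p6, chr4:116685349-116685598, plus strand).
Prdx1: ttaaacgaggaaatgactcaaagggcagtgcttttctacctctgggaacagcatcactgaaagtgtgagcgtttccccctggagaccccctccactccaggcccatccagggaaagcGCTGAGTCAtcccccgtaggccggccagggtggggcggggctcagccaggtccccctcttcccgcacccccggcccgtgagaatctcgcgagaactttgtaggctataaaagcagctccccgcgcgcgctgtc

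Around thioredoxin, the wider list of the glutathione and thioredoxin cycle held 33 tested genes, with a median difference of -0.15. Of the 33, 3 rose (9.09%, against 20.8% of all genes tested), 14 fell (42.4%, against 22.1%) and 16 did not pass. Txnip, which binds and inhibits thioredoxin, was at 216, 208 and 166 FPKM in icKO, against 55.1, 31.6 and 33.6 FPKM in control libraries (2.30, SE 0.22, limma, Benjamini-Hochberg adjusted p = 0.000826). Sesn1, a stress-induced sestrin, averaged 131 ± 37.1 FPKM in icKO and 46.7 ± 8.83 FPKM in control nerves, and Slc3a2, the heavy chain of several amino acid transporters, averaged 108 ± 7.68 FPKM in icKO and 78.1 ± 2.58 FPKM in control nerves (SD, n = 3 each). The 3 falls with the smallest p were Chac2, a glutathione-degrading cyclotransferase, Ggt7 and Glo1, the glyoxalase that uses glutathione, by 1.09, 0.79 and 0.58 on the log2 scale.

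Among the glutathione peroxidases, Gpx7 and Gpx8 fell and the selenium-dependent ones did not pass. Gpx8, an endoplasmic reticulum membrane peroxidase, was at 27.2, 21.8 and 23.1 FPKM in icKO, against 47.5, 59.2 and 61.9 FPKM in control libraries, or 0.428 times the control mean (-1.19, SE 0.13, limma, Benjamini-Hochberg adjusted p = 0.00119). Gpx7, its soluble relative, was at 15.6, 14.9 and 14.1 FPKM in icKO, against 16.5, 23.8 and 21.2 FPKM in control libraries. Gpx7 (-0.42, limma, Benjamini-Hochberg adjusted p = 0.0424) passed in only 1 of the 6 fits without a single library, that without control 1, with an adjusted p of 0.0756 to 0.123 in the others. For Gpx7 and Gpx8 control 1 was the lowest control library. Control 1 was also the control library lowest in fibroblast markers, with a sum of 939 FPKM against 1709 and 1502 FPKM in controls 2 and 3, and the part of fibroblasts in these differences was not tested.

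Gpx4, which reduces lipid peroxides within membranes, was the most abundant peroxidase at 135, 132 and 118 FPKM in icKO, against 129.9, 118 and 127 FPKM in control libraries. The groups overlapped, and the 95% interval of the difference, -0.18 to 0.25, does not reach the differences of Prdx1 or Gpx8. In Gpx1, the cytosolic selenium enzyme, a single library stood apart, with 47.7, 43.4 and 15.7 FPKM in icKO, against 52.3, 45.2 and 53.3 FPKM in control libraries. Its difference was -0.63 with all libraries and -0.14 without icKO 3, neither of which passed, and it passed only with the mean log2 level of the 10 skeletal muscle markers as a covariate (-1.04, limma, Benjamini-Hochberg adjusted p = 0.0118). Gpx3, the secreted form, was at 34.7, 48.9 and 25.0 FPKM in icKO, against 28.4, 41.0 and 22.9 FPKM in control libraries. Of 20 tested selenoprotein and selenium genes, 2 rose, 7 fell and 11 did not pass, with a median difference of -0.20. The shares were 10% higher and 35% lower, against 20.8% and 22.1% of all genes tested. Selenow was at 89.6 ± 4.59 FPKM in icKO and 148 ± 5.64 FPKM in control nerves, and Selenot and Scly, the selenocysteine lyase, were the other falls among the 3 with the smallest p, by 0.52 and 0.55 on the log2 scale. Selenbp1, a selenium-binding protein, rose by 1.23 and Selenos by 0.51.

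Catalase had the smallest adjusted p of the 37 genes and the extracellular dismutase the largest difference, while the dismutases inside the cell did not pass. Cat, the peroxisomal catalase, was at 65.1, 62.4 and 54.6 FPKM in icKO, against 135, 121 and 118 FPKM in control libraries, or 0.487 times the control mean (-1.03, SE 0.10, limma, Benjamini-Hochberg adjusted p = 0.000843). Sod3, secreted to the matrix, was at 11.6, 8.03 and 14.0 FPKM in icKO, against 30.4, 31.4 and 31.0 FPKM in control libraries, or 0.361 times the control mean (-1.42, SE 0.18, limma, Benjamini-Hochberg adjusted p = 0.0017). Its 3 control libraries lay close together, control 1 included. Sod1, the cytosolic copper and zinc enzyme, was at 22.7, 28.0 and 20.5 FPKM in icKO, against 20.5, 19.4 and 20.6 FPKM in control libraries. Sod2, the mitochondrial manganese enzyme, was at 6.21 ± 0.31 FPKM in icKO and 6.33 ± 0.47 FPKM in control nerves (SD, n = 3 each), with a 95% interval of the difference of -0.22 to 0.18.

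**Figure D3:**
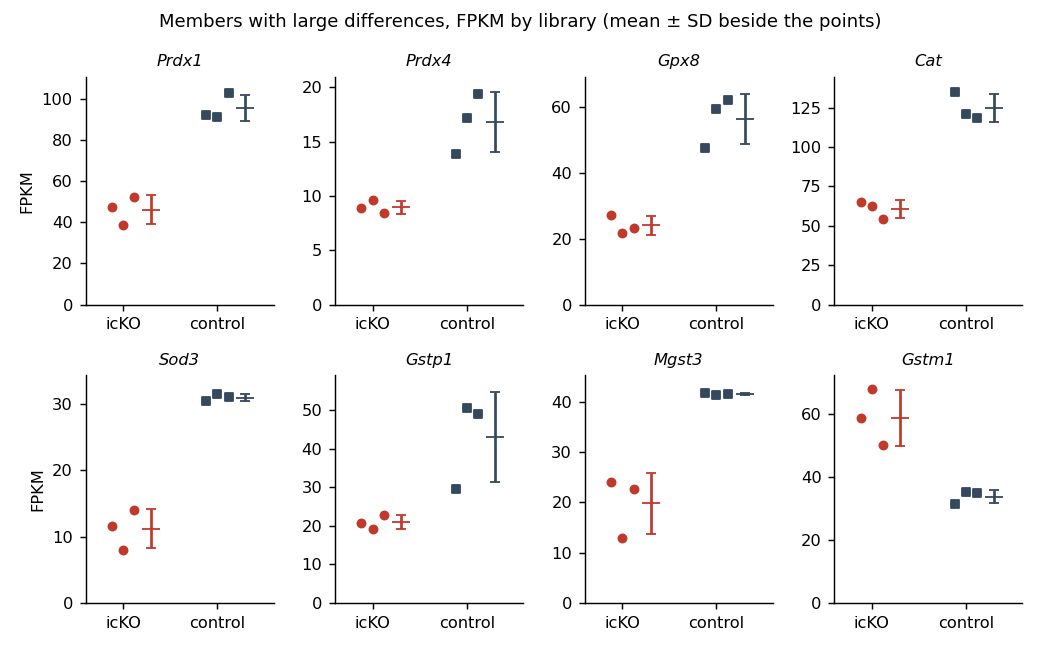
FPKM (vertical axis, from 0) by library for 7 members that fell and for Gstm1, which rose, with icKO at the left and control at the right of each panel and the mean ± SD (n = 3) beside the points. The groups do not overlap in any panel. Control 1 is the lowest control library for Prdx4, Gpx8, Gstp1, Sod3 and Gstm1 but not for Prdx1, Cat and Mgst3.

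Of 8 glutathione transferases, which attach glutathione to electrophiles, 6 fell, 1 rose and 1 did not pass. The shares were 75% lower and 12.5% higher, against 22.1% and 20.8% of all genes tested. Mgst3, a membrane-bound member, was at 24.0, 12.9 and 22.7 FPKM in icKO, against 41.8, 41.3 and 41.6 FPKM in control libraries (-1.08, SE 0.22, limma, Benjamini-Hochberg adjusted p = 0.00884). Mgst1, another membrane enzyme, was at 9.38, 12.8 and 12.8 FPKM in icKO, against 20.5, 21.4 and 21.7 FPKM in control libraries. Gstp1, the pi-class enzyme, was at 20.8, 19.1 and 22.8 FPKM in icKO, against 29.7, 50.6 and 49.0 FPKM in control libraries. All icKO values of these 3 genes lay below control, with log2 differences of -0.82 for Mgst1 and -0.97 for Gstp1 (limma, Benjamini-Hochberg adjusted p = 0.00334 and 0.0103).

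The mu class split by member. Gstm1 was at 58.5, 67.7 and 49.95 FPKM in icKO, against 31.3, 35.1 and 34.7 FPKM in control libraries, or 1.74 times the control mean (0.77, SE 0.12, limma, Benjamini-Hochberg adjusted p = 0.00375), the only transferase among the members that rose. Gstm2 was at 11.2, 11.5 and 11.6 FPKM in icKO, against 14.0, 20.9 and 17.7 FPKM in control libraries. It did not pass without icKO 1 or control 3 (limma, Benjamini-Hochberg adjusted p = 0.0547 and 0.0615). Gstm5 was at 16.4, 11.3 and 12.8 FPKM in icKO, against 22.1, 20.5 and 23.5 FPKM in control libraries, and it did not pass when icKO 3 and control 1 were left out together (limma, Benjamini-Hochberg adjusted p = 0.0522). The groups did not overlap in any of these 3 genes, and the log2 differences were -0.56 for Gstm2 and -0.68 for Gstm5 (limma, Benjamini-Hochberg adjusted p = 0.0186 and 0.00846).

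Gstt1, of the theta class, was at 3.85, 5.14 and 3.52 FPKM in icKO, against 4.90, 9.88 and 9.47 FPKM in control libraries. Control 1 lay within the range of the icKO libraries, and the call (-0.77, limma, Benjamini-Hochberg adjusted p = 0.0458) held in only 1 of the 6 fits without a single library, that without control 1 (adjusted p of 0.0555 to 0.136 in the others). Gsta4, which clears the lipid peroxidation product 4-hydroxynonenal, was at 9.38, 7.66 and 9.65 FPKM in icKO, against 7.57, 7.87 and 7.55 FPKM in control libraries, and passed as a rise only without icKO 2 (0.28, limma, Benjamini-Hochberg adjusted p = 0.0336). Among 14 other tested transferases and related peroxidases, 7 fell (50%, against 22.1% of all genes tested), 1 rose (7.14%, against 20.8%) and 6 missed the threshold. The median difference was -0.61. Gstm4, Gstz1 and Gstm7 fell by 0.98, 0.71 and 0.62 on the log2 scale, and Gsto1, of the omega class, was at 7.52 ± 1.07 FPKM in icKO and 4.13 ± 0.40 FPKM in control nerves (SD, n = 3 each).

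Several of these genes have close copies that can share fragments, and the authors' handling of such fragments is not given in the sources used here. Of the windows of 50 bases in the longest coding transcript (GENCODE release M21), 78.9% for Ftl1, 62.3% for Gstp1, 61.7% for Gpx4, 23.1% for Gstm1 and 23.1% for Sod1 also occurred in another annotated gene. Gstp2, which shares most with Gstp1, averaged 3.41 FPKM in icKO and 7.27 FPKM in control nerves. Gpx4-ps2 was listed at 34.0 FPKM in icKO and 34.7 FPKM in control nerves. Prdx1, Gstm2 and Prdx2 shared 10.9%, 9.36% and 8.96%, and the other members 4.01% or less. Levels of the first 5 genes are therefore uncertain. Ftl1 also overlaps Gm22133 on the same strand, which averaged 702 FPKM over all libraries. On the opposite strand, Prdx2 overlaps Junb (16.3 FPKM) and Rnaseh2a (2.50 FPKM), Prdx5 overlaps Trmt112 (12.05 FPKM), Gss overlaps Acss2 (7.58 FPKM), Gstm5 overlaps 4933431E20Rik (5.53 FPKM) and Sod1 overlaps Scaf4 (5.26 FPKM). These overlaps are between whole gene spans, introns included, and the overlap of exons was not examined. The handling of strand is not given in the sources used here, so reads from stretches that 2 genes share may not be told apart.

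Ferritin heavy chain was the other member that rose. Fth1, the subunit that oxidises iron for storage, was at 527, 623 and 438 FPKM in icKO, against 369, 319 and 363 FPKM in control libraries. All icKO libraries lay above control, a ratio of 1.51 (0.58, SE 0.14, limma, Benjamini-Hochberg adjusted p = 0.0182), which did not pass without icKO 1 or control 2 (limma, Benjamini-Hochberg adjusted p = 0.0549 and 0.0618). Ftl1, the light chain that helps to form the mineral core, was at 432, 335 and 408 FPKM in icKO, against 346, 359.9 and 361 FPKM in control libraries. Tfrc, the receptor for transferrin-bound iron, was at 5.16, 4.34 and 6.38 FPKM in icKO, against 4.65, 4.62 and 4.83 FPKM in control libraries. In both genes icKO 2 lay below and the other icKO libraries above all control libraries.

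These 3 messages carry the iron-responsive element, a hairpin bound by iron regulatory proteins, which blocks translation of ferritin from its 5′ end and protects the Tfrc message at its 3′ end when iron is scarce. The element was searched as the loop CAGTGN, its last base not G, with the 5 bases on each side paired (G with T allowed) and a C before the first of them, on the sense strand of GENCODE release M21 transcripts, where 1.01% of 21901 coding genes hold it. The search also matched the member Keap1, in its coding sequence, and Slc40a1 and Alas2 of the iron and haem list, in the 5′ UTR. These matches are not shown. The loop CAGTGN is in capitals, and the elements of both ferritins are shown with the first 2 of the 4 found in the 3′ UTR of Tfrc. They were chosen since Fth1 and Ftl1 share the 5 paired bases and differ in whether they passed.
Fth1, chromosome 19, 5′ UTR: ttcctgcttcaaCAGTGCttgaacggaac
Ftl1, chromosome 7, 5′ UTR: gtcttgcttcaaCAGTGTttgaacggaac
Tfrc, chromosome 16, 3′ UTR: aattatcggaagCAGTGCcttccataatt
Tfrc, chromosome 16, 3′ UTR: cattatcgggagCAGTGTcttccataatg

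Other genes of iron and haem handling moved in both directions. Of 54 listed, 44 were tested, 9 rose, 11 fell and 24 did not pass, shares of 20.5% and 25.0% that lie near those of all genes tested (20.8% and 22.1%). Slc39a14, a metal importer that also takes up iron not bound to transferrin, was at 5.11, 6.23 and 6.77 FPKM in icKO, against 1.87, 2.06 and 1.85 FPKM in control libraries (1.26, SE 0.11, limma, Benjamini-Hochberg adjusted p = 0.00069). Slc25a28, mitoferrin-2, which carries iron into mitochondria, averaged 28.1 ± 6.41 FPKM in icKO and 11.3 ± 1.19 FPKM in control nerves, and Lcn2, which binds bacterial iron carriers, 3.64 ± 0.55 FPKM in icKO and 1.34 ± 0.40 FPKM in control nerves (SD, n = 3 each). Falls with the smallest p were Uros, an enzyme of haem synthesis (1.06 ± 0.19 FPKM in icKO and 2.73 ± 0.09 FPKM in control nerves), Slc46a1, a folate and haem transporter, and Hamp2, by 0.86, 0.94 and 0.62 on the log2 scale.

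Trf and Steap3, the ligand of the receptor and the reductase of its endosome, were added after their values were seen. Trf was at 28.9, 24.8 and 38.4 FPKM in icKO, against 38.0, 63.7 and 53.4 FPKM in control libraries (-0.73, limma, Benjamini-Hochberg adjusted p = 0.0394). Steap3 was at 5.92, 3.70 and 6.89 FPKM in icKO, against 8.54, 19.3 and 17.7 FPKM in control libraries (-1.27, limma, Benjamini-Hochberg adjusted p = 0.0199). For Trf control 1 lay within the icKO range, and for Steap3 all icKO libraries lay below control. Trf did not pass without icKO 1, icKO 2, control 2 or control 3 (limma, Benjamini-Hochberg adjusted p of 0.105 to 0.112), nor did Steap3 without icKO 2, control 2 or control 3 (adjusted p of 0.0605 to 0.0671). The iron exporter gene Slc40a1 was under the filter, at 0.11 to 0.22 FPKM in icKO and 0.13 to 0.31 FPKM in control libraries.

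**Figure D4:**
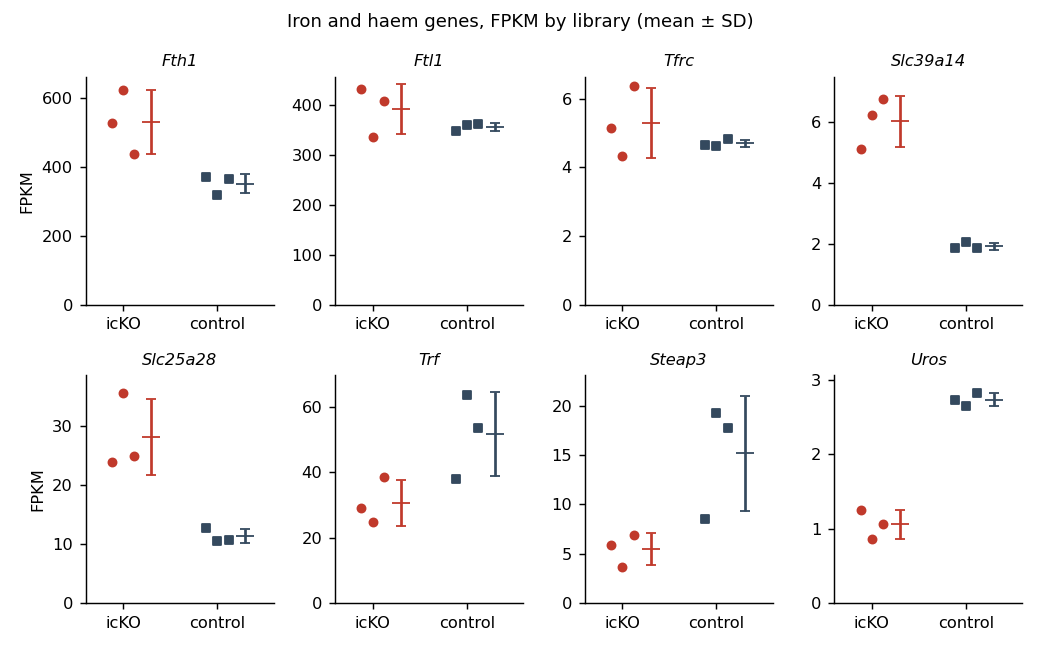
FPKM (vertical axis, from 0) by library of Fth1, Ftl1 and Tfrc and of 5 other iron and haem genes, with icKO at the left and control at the right of each panel and the mean ± SD (n = 3) beside the points. Fth1, Slc39a14 and Slc25a28 lie above control in every icKO library, and Steap3 and Uros below it.

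Genes that supply NADPH, the reductant of both the glutathione and the thioredoxin systems, were called about as often as all genes tested (41.7% against 42.9%). Of 12 tested, 4 fell (33.3%, against 22.1% of all genes tested), 1 rose (8.33%, against 20.8%) and 7 missed the threshold. The median difference was -0.25. Me1, cytosolic malic enzyme, was at 15.03 ± 1.56 FPKM in icKO and 54.5 ± 9.50 FPKM in control nerves (SD, n = 3 each), and G6pdx, which opens the pentose phosphate pathway, at 8.41 ± 1.02 FPKM in icKO and 16.6 ± 2.66 FPKM in control nerves. Mthfd1, of the folate cycle, fell by 0.58 on the log2 scale, and Idh2, the mitochondrial isocitrate dehydrogenase, rose by 0.61 but did not pass without icKO 3 and control 1 together (limma, Benjamini-Hochberg adjusted p = 0.0647). Malic enzyme is abundant in fat cells, whose markers were lower in the same libraries, and these markers and genotype cannot be told apart.

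Enzymes that make oxidants were few in the nerve, with 8 of 16 tested. Of the 8, 12.5% rose and 25% fell, against 20.8% and 22.1% of all genes tested. Xdh, xanthine dehydrogenase, was at 7.49 ± 1.11 FPKM in icKO and 3.07 ± 0.31 FPKM in control nerves (SD, n = 3 each), the only rise. The monoamine oxidases Maoa and Maob, of the outer mitochondrial membrane, fell by 0.96 and 0.79 on the log2 scale, and 5 genes did not pass. Of 10 tested genes of lipid peroxidation and ferroptosis, 1 rose (10%, against 20.8% of all genes tested) and 4 fell (40%, against 22.1%). The acyl-CoA synthetase Acsl3 was at 8.37 ± 0.98 FPKM in icKO and 26.2 ± 6.95 FPKM in control nerves, Cisd1, an iron-sulfur protein of mitochondria, fell by 0.57, and Aifm2, known as FSP1, fell by 0.41 but did not pass in 5 of the 6 fits without a single library. Slc7a5, an amino acid transporter, rose by 0.71 and did not pass without control 2 or control 3 (limma, Benjamini-Hochberg adjusted p = 0.0732 and 0.0741).

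Over all 9 lists together, with members left out, 170 genes were tested, of which 25 rose, 54 fell and 91 did not pass. The shares were 14.7% higher and 31.8% lower, against 20.8% and 22.1% of all genes tested. Leaving out control 2 or control 3 left 32 or 33 falls. Calls over all 12860 genes tested were 3922 without control 2 and 3750 without control 3, against 5516 with every library.

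**Figure D5:**
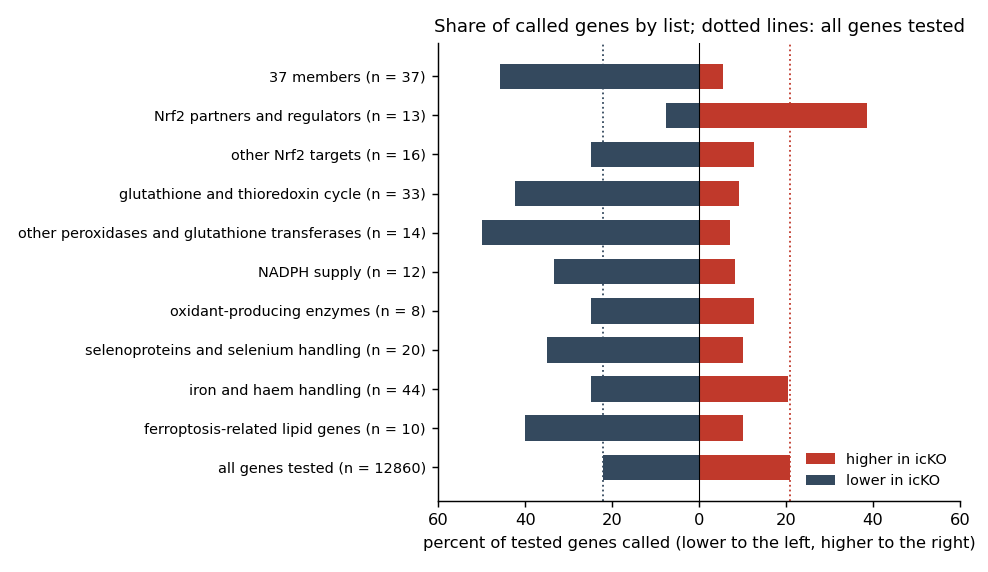
Percent of tested genes that passed in each list (horizontal axis), higher in icKO to the right and lower in icKO to the left, with the number tested beside each name and dotted lines at the shares of all 12860 genes tested. The 37 members lie at 45.9% lower and 5.41% higher, and the list of Nrf2 partners and regulators at 7.69% lower and 38.5% higher.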

How the data were processed

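The authors deposited FPKM values for 55335 genes, 1 column for each of 6 libraries. The submitters' processing notes name StringTie 1.3.1c, STAR, DESeq2 1.16.1, FastQC 0.11.2 and the build GRCm39, without a role for each. Symbols came from GENCODE release M21 (GRCm38), which held 55154 of the IDs and was used for names and transcript sequences. Of 219 entries in the pathway lists 218 were matched, and Nnt, with 2 gene IDs, was left out.

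Counts were not used here. Depth was estimated from the steps between low FPKM values (below 0.3) in genes with a single transcript. Genes averaging 1 FPKM or more were tested on log2(FPKM + 1) with limma 3.58.1 in R 4.3.3 (two-sided moderated test, variance trend, no covariate), with Benjamini-Hochberg adjustment over 12860 genes. The procedure was also run on simulated data with noise drawn independently for each gene. That setting lacks shifts shared by many genes, so it does not vouch for the calls made here. The members, lists, markers and tests were chosen with earlier results of these data known. All members were named, and from each list up to 3 called genes per direction with the smallest p. Maff, Rxra, Trf, Steap3, Slc7a11 and Slc40a1 were added after their values were seen. The 20 alternatives changed the pseudocount, filter, unit, scaling, block, variance model, covariate or libraries. The Schwann cell marker sum is not reported here.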

Additional observations from a re-analysis of the deposited data

How the results depend on the processing

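Direction and call held in 655 of the 738 member values recomputed under alternatives. With the direction kept, 47 lost the call and 3 gained it. The other 33 changed sign and are counted only there, also where the call was lost, as for called members under the adipocyte covariate. The cause was not tested. With a mean of at least 5 FPKM, 3308 of 6888 genes tested passed, against 5516 of 12860 in the main fit. Among members 2 rises and 17 falls passed, and 31 falls in the pathway lists, where fewer genes are also tested. Without a filter, 6079 of 30465 genes tested passed, with 1 rise and 13 falls among members. Omitting a single library gave 3750 to 5458 calls among all genes, 1 to 4 rises and 11 to 16 falls among members, and 21 to 28 rises and 32 to 53 falls in the lists. Replicate numbers share only a number (correlations of deviations -0.10, 0.04 and -0.05); with the replicate block 4596 genes passed, with 2 rises and 14 falls among members, without Hmox1, Txn1 and Gpx7.

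The adipocyte covariate, which lies almost wholly between the groups, left 1 call among all genes and 0 rises and 0 falls in members and lists. Differences then turned positive for Nfe2l2 (0.25), Hmox1 (1.25), Srxn1 (4.69), Gclm (0.20), Txn1 (0.15), Prdx1 (0.055), Prdx2 (0.093), Prdx3 (0.25), Sod2 (0.16), Sod3 (0.38), Gstp1 (0.36), Mgst3 (0.80), Park7 (0.30), Akr1b8 (0.15), G6pdx (0.23), Mthfd1 (0.17), Cisd1 (0.021), Aifm2 (0.12), Trf (1.38) and Steap3 (1.62), and negative for Nqo1 (-0.60), Gpx3 (-1.90), Gpx4 (-0.44), Sod1 (-0.88), Gstm1 (-0.10), Fth1 (-0.77), Sesn1 (-0.99), Slc3a2 (-0.086), Slc25a28 (-0.22), Slc7a5 (-1.23), Maff (-0.31) and Rxra (-0.15).

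The other changes of sign were in genes that did not pass. The muscle covariate gave 0.17 for Srxn1, 0.036 for Gclm and -0.0038 for Gpx4. Without icKO 3 and control 1, Keap1 was at -0.052 and Txnrd1 at -0.24. Omitting a single library gave -0.032 to 0.18 for Keap1, -0.69 to 0.34 for Srxn1, -0.15 to 0.014 for Gclm, -0.097 to 0.58 for Txnrd1, -0.021 to 0.45 for Gpx3, -0.0031 to 0.099 for Gpx4 and -0.058 to 0.029 for Sod2.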

Other observations

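Nnt, the mitochondrial transhydrogenase that makes NADPH, has 2 overlapping gene IDs, so it was left out of the list counts, and neither ID passed (limma, Benjamini-Hochberg adjusted p = 0.691 for ENSMUSG00000025453 and 0.991 for ENSMUSG00000116207). ENSMUSG00000025453 was at 1.11, 3.22 and 0.57 FPKM in icKO, against 0.39, 7.05 and 1.602 FPKM in control libraries. ENSMUSG00000116207 was at 6.48, 0 and 8.71 FPKM in icKO, against 7.91, 0 and 6.84 FPKM in control libraries, so it was listed at 0 in icKO 2 and control 2, the libraries in which the first ID was highest.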
